A study of Homo sapiens with 5 samples.

Results

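The genes of the human proteasome were examined in HEK293, an established line of human embryonic kidney cells. Members were the protein-coding rows of the deposited count table whose symbol begins with PSMA, PSMB, PSMC, PSMD, PSME, PSMF or PSMG followed by a number. The rule found 47 of the 16677 genes, and all 47 were among the 16310 genes with enough counts to be tested. A further 15 rows carry such a symbol but are pseudogenes or antisense transcripts and were left out. By role, the members comprised 7 subunits of the alpha ring, 7 of the beta ring and 2 inducible beta subunits. They also comprised 6 ATPases, 3 other base subunits, 8 lid subunits, 3 assembly chaperones of the base, 5 activators and inhibitors and 4 assembly chaperones of the core. PSMC3IP, a partner protein of meiotic recombination, and PSME3IP1, which binds PSME3, met the rule by name and are not subunits. PSMA8, PSMB8 and PSMB11, specialised forms of core subunits, were not analysed here.

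Messenger RNA was sequenced in 5 libraries from cells under basal culture, with no treatment named. Per the labels, 2 libraries were wild-type HEK293 and 3 had the variant rs11607019 (T to C), which the series places in SIRT3. The labels do not say whether the libraries of a group are independent clones or cultures of 1 clone, so p-values measure only the spread between these libraries. Library totals ran from 17122569 to 17596084 counts. Of 6 genes listed as HEK293 markers, 4 were in the table (PAX2, VIM, KRT8 and KRT18), with a summed level between 620.6 and 1105 CPM (counts of a gene scaled to a common library total). NEFM and NEFL, the other 2, and all 9 markers of blood, endothelial, liver and fibroblast cells were not analysed here, so the label was checked on 4 genes.

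The proteasome degrades proteins tagged with ubiquitin. Its 20S core is a barrel of stacked rings, in which alpha subunits form the gate and 3 kinds of beta subunit cut peptide bonds. The 19S cap recognises substrates: its base unfolds them with a ring of ATPases, and its lid removes the ubiquitin chain through PSMD14. PSMD13 is a structural lid subunit. When proteasome activity is short, the transcription factor NFE2L1 can raise the genes of most subunits together, through antioxidant response elements in their promoters.

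PSMD13 (ENSG00000185627) lies on chromosome 11 from 236546 to 252984 on the forward strand in GENCODE release 29, on GRCh38. SIRT3 lies beside it and is read the other way. The promoter window of PSMD13 from RefSeq (GRCh38.p14, chr11:236726-237025, forward strand) is shown because both genes start inside it. Capitals mark the 46 bases from the start of SIRT3, at 236931, to the start of PSMD13, at 236976.
PSMD13: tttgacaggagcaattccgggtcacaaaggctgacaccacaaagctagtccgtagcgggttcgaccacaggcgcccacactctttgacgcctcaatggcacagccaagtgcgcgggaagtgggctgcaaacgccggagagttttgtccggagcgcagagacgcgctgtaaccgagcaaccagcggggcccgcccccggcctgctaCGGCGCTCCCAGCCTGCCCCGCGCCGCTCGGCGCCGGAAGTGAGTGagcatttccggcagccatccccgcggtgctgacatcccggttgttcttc

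The capitals hold a match to CCGGAAGT, the core recognised by ETS factors, which begins 12 bases before the PSMD13 start. Both strands were searched, and this motif was chosen after the window had been seen. It occurred in the windows of 1351 of 27305 genes (4.95%) and of 10 of the 41 members with a window. The antioxidant response element, searched as TGACNNNGC on both strands, had no match in the PSMD13 window. It had a match in 15 of 41 members (36.6%) and in 4384 of 27305 genes (16.1%). Of the lid genes, PSMD3 held 2 matches, 1 on each strand, and PSMD12 held 1. Their windows are shown for contrast with PSMD13, with each match in capitals (PSMD3, chr17:39980557-39980856, forward strand; PSMD12, chr17:67366528-67366827, reverse strand).
PSMD3: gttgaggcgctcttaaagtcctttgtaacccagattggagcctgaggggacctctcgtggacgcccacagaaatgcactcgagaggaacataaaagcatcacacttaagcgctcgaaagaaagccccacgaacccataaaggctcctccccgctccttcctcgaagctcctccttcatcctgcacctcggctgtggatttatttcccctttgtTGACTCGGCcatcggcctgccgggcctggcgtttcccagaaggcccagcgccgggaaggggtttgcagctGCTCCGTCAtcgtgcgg
PSMD12: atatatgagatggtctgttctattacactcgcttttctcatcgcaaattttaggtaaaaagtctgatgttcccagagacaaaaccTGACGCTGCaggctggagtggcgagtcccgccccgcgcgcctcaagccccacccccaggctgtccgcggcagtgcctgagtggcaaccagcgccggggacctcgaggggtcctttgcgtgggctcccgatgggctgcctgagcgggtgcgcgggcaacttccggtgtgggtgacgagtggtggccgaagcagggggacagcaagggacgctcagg

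PSMD13 departed most from the other lid subunits in variant 2, the only library in which, relative to the other libraries, it was below all of them. Its level, as CPM scaled by the trimmed mean of M-values (TMM), was 110.04 and 139 in the wild-type libraries 1 and 2, and 107, 58.6 and 142 in variants 1 to 3. Variant 2 was thus the lowest, and the other 2 variant libraries bracketed both wild-type libraries. The raw counts behind these levels were 1888, 2442, 1855, 1021 and 2518 in the same order. As a share of all counts, without TMM scaling, variant 2 gave 58.9 CPM (95% Wilson interval 55.4 to 62.6). The nearest library, variant 1, gave 105 CPM (100.7 to 110.3). These intervals allow for counting error alone and not for the spread between libraries, and no molecular identifiers were used. In a bulk library, less of this RNA in every cell and fewer cells that make it cannot be told apart.

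The level of a gene in a library is set here against the mean of the other 4 libraries, as a difference of log2 CPM. For PSMD13 this difference was −1.08 in variant 2, which is 0.475 times the level elsewhere. Only 77 of the 16310 tested genes (0.472%) had a lower difference there. At least 1 log2 unit below the other libraries in variant 2 stood 110 of the tested genes (0.674%), and PSMD13 was the only one of the 47 members. The wild-type libraries 1 and 2 had 0.06 and 0.48, and variants 1 and 3 had 0.01 and 0.52. These values describe a library that was singled out with its PSMD13 level known, so no test was made of it.

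The other 7 lid subunits were near their usual level in variant 2. Their differences ran from −0.27, for PSMD12, to 0.18, for PSMD11, with a median of 0.09. The value of PSMD13 minus that median was −1.16 in variant 2. In the wild-type libraries 1 and 2 it was 0.02 and 0.42, and in variants 1 and 3 it was 0.23 and 0.53. On this scale PSMD13 was above the range of the other lid subunits in wild-type 2 and in variants 1 and 3. There the mean it was set against includes its own low value in variant 2, which raises these differences. With variant 2 left out of the comparison, PSMD13 had −0.23 and 0.23 in the wild-type libraries 1 and 2. Variants 1 and 3 then had −0.27 and 0.27. The values above the lid range are thus not independent of variant 2. Per length of transcript, PSMD13 made up 5.06%, 5.90%, 5.67%, 2.66% and 6.41% of the summed lid level, with the wild-type libraries first. Variant 2 was the lowest of the 5.

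**Figure D1:**
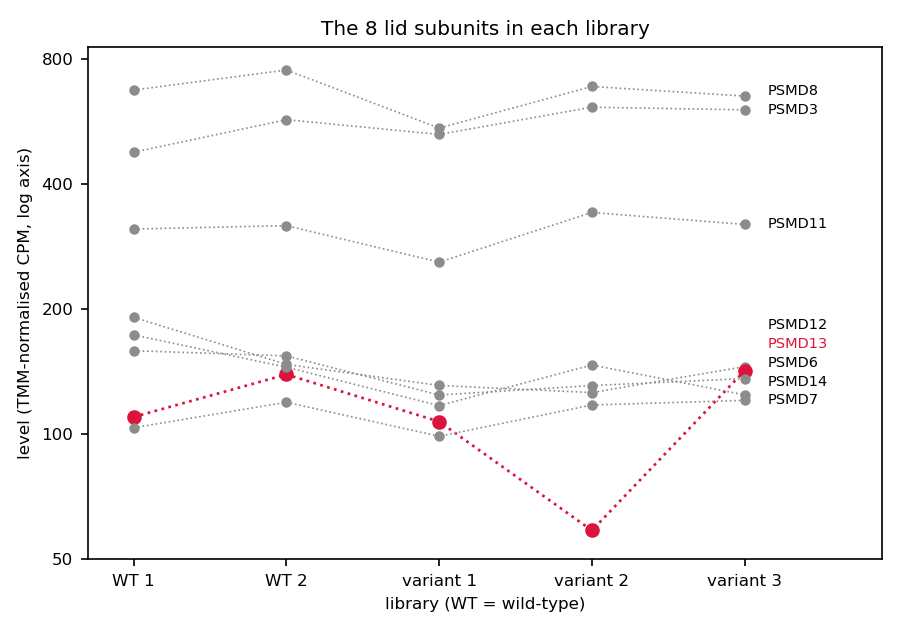
Level of the 8 lid subunits (TMM-normalised CPM, log axis) in each of the 5 libraries, 1 point per library, with PSMD13 in red; dotted lines join the points of a gene and imply no order of libraries. PSMD13 lies between 107 and 142 CPM in 4 libraries and at 58.6 CPM in variant 2.

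In variant 2 the tested neighbours nearest PSMD13 were low, and those farther along the chromosome were not. Of 11 tested neighbours, 6 were below the other libraries and 5 above, where 50.4% of all tested genes were below. Their median was −0.30, against −0.04 for the median of all tested genes on chromosome 11. On the SIRT3 side the differences were −1.12 for BET1L, −1.01 for RIC8A and −0.86 for SIRT3. On the other side PGGHG, the nearest tested gene, had −0.30, IFITM2 had −1.15 and IFITM3 had −1.45. Farther along, B4GALNT4 had 1.26, SIGIRR 0.48, PTDSS2 0.25, RNH1 0.02 and HRAS 0.39. Low neighbours thus lay on both sides of PSMD13, and the 5 farthest on this side were above the other libraries. The other members on that chromosome lie far from this end of it. PSMA1 had −0.33 and PSMC3, a base ATPase, had −0.18 in variant 2. SIRT3 and PSMD13 overlap on opposite strands in GENCODE release 29, and the sources used here do not give whether counting used the strand. Of the 47 members, 25 overlap an annotated gene on the opposite strand, so the same limit touches their levels.

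Where PSMD13 was low, the median of the other subunits was inside the range of the other libraries. In variant 2 their 46 differences from the other libraries ran from −0.33, for PSMA1, to 0.67, for PSMA6, with a median of 0.03. Of these 46 genes, 27 were above the other libraries, and 49.6% of all tested genes were. The same 46 genes had medians of 0.02 and 0.08 in the wild-type libraries 1 and 2, and of −0.16 and −0.03 in variants 1 and 3. The SD of those 4 medians was 0.105. The sign of the variant 2 median was not stable: it was −0.02 with variant 1 left out of the comparison, and −0.02 over the 37 of these genes outside chromosomes 9 and 14, of which 18 were above.

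**Figure D2:**
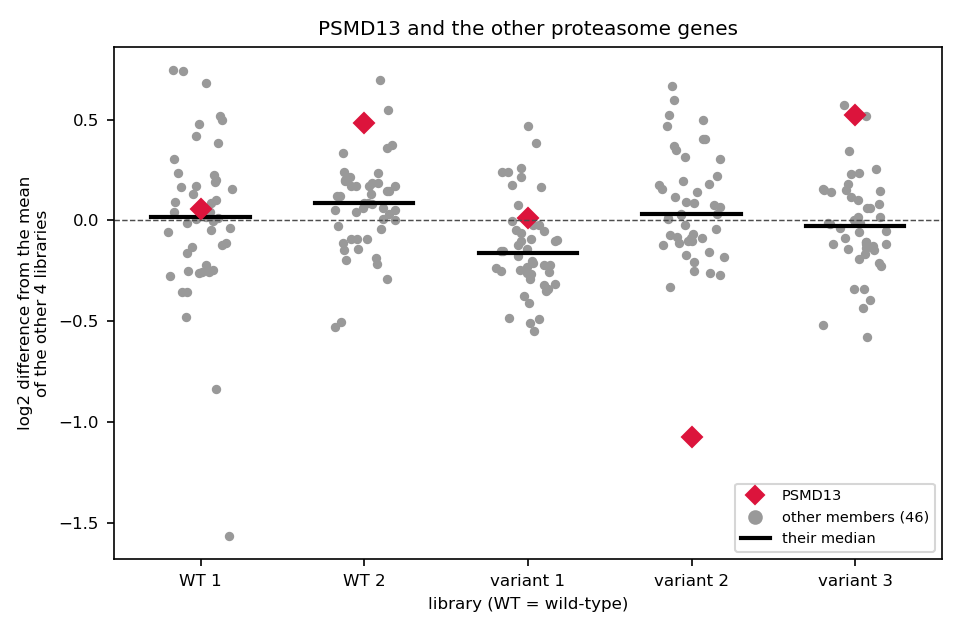
Log2 difference of each proteasome gene from the mean of the other 4 libraries, in each library; grey points are the 46 members other than PSMD13, black bars their median, red diamonds PSMD13. PSMD13 lies at −1.08 in variant 2, below each of the other 46, whose median is 0.03 there and −0.16 in variant 1.

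The members highest in variant 2 were PSMA6, an alpha ring subunit, PSMD10 (gankyrin, an assembly chaperone of the base) and PSMG4 (an assembly chaperone of the core). PSMA6 stood at 10.8 and 7.41 CPM in wild type and at 11.3, 14.3 and 7.12 CPM in variants 1 to 3. Variant 2 was the highest, but PSMA6 has 3 pseudogene rows that took between 66.03% and 72.4% of the combined counts, so its level is uncertain. PSMD10 stood at 107, 91.2, 88.2, 142 and 89.7 CPM in the same order, again highest in variant 2. PSMG4 stood at 37.2, 29.6, 37.6, 53.1 and 45.2 CPM. After PSMD13 the lowest in variant 2 were PSMA1, PSMD12 and PSMG2 (an assembly chaperone of the core), at −0.33, −0.27 and −0.26.

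The RNA of NFE2L1 itself was not high in variant 2. It stood at 307 and 375 CPM in wild type and at 419, 351 and 397 CPM in variant 1, variant 2 and variant 3, so variant 2 lay between the wild-type libraries. Of the 15 members with an antioxidant response element match, 7 were above the other libraries in variant 2, with a median of −0.02. Of the 25 members without one, PSMD13 aside, 17 were above, with a median of 0.08. Of all tested genes, 49.6% were above there. An RNA level does not measure the activity of the protein, and a match is not a measured binding site. Whether NFE2L1 activity differed in variant 2 was not tested. SEM1, the small lid subunit that the naming rule leaves out, had a difference of −0.08 in variant 2, and ADRM1, a ubiquitin receptor of the base, had −0.07.

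Between the groups, no proteasome gene passed the threshold. At an adjusted p under 0.05 over all tested genes (Benjamini-Hochberg), edgeR's quasi-likelihood test gave 0 of 47 members and 0 of 16310 genes (0%), and the smallest adjusted p of a member was 0.616. DESeq2's Wald test gave 0 members and 32 genes (0.196%), with a smallest member value of 0.379. With edgeR's unadjusted p under 0.05, 3 members were lower in the variant (6.38%, against 3.51% of tested genes) and 0 were higher (4.11% of tested genes). The 3 were PSMA1, PSMB6 and PSMG1.

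More members were lower than higher. The log2 fold change, variant against wild type, was below 0 in 30 of 47 members and in 49.5% of tested genes, and its median was −0.10 over the members and 0.00 over tested genes. All 3 variant libraries lay below both wild-type libraries in 13 members (27.7%), against 13.0% of tested genes. They lay above both in 2 members, PSMA7 and PSMG4 (4.26%, against 11.8%). Without variant 1 the groups were apart and lower in 13 members where 19.9% of tested genes were, and the median fold change was −0.06. Without variant 2 the count was 20, with 17.9% of tested genes, and the median −0.12. With levels corrected for GC content and for the length of the transcript it was 11 members, with 14.3% of tested genes. Under that correction the log2 fold change was below 0 in 28 of 47 members and in 53.9% of tested genes, with a median of −0.05. Without wild-type 2, 18 members were apart and lower (29.8% of tested genes) and 14 apart and higher (27.1% of tested genes), with a median of −0.03. The members apart and higher were 7 without variant 1, 4 without variant 2 and 5 without variant 3, where 19.2%, 16.2% and 20.3% of tested genes were.

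**Figure D3:**
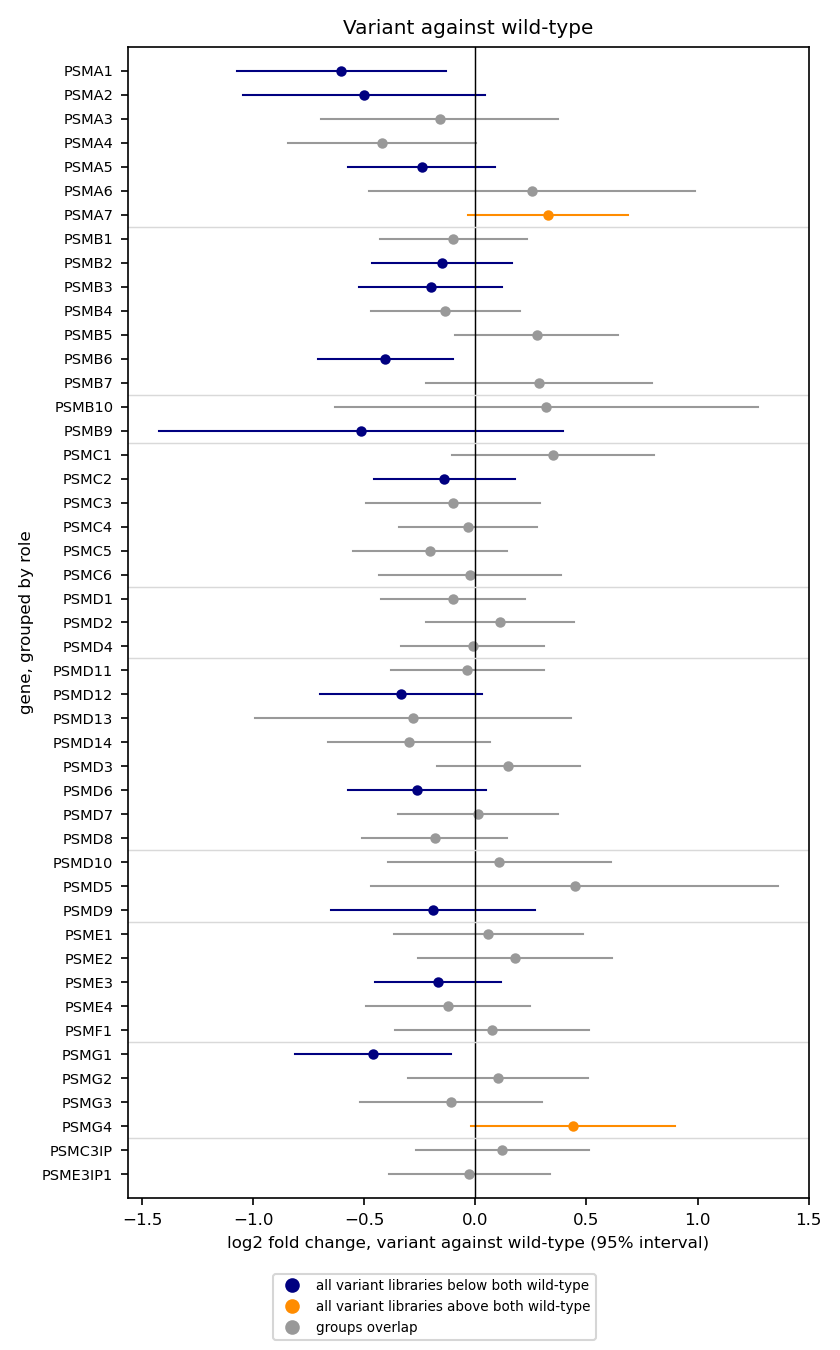
Log2 fold change of each proteasome gene, variant against wild-type, with its 95% confidence interval from edgeR's fit; colours show whether the 3 variant libraries lie wholly below (13 genes) or above (2 genes) both wild-type libraries. The median is −0.10, and no gene has an adjusted p under 0.05.

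In the alpha ring, which gates the core, 5 of 7 genes had a log2 fold change below 0 (49.5% of tested genes), with a median of −0.24. PSMA1 (ENSG00000129084) stood at 53.3 and 38.2 CPM in wild type and at 26.01, 29.3 and 35.02 CPM in variant 1, variant 2 and variant 3. The groups did not overlap, and its log2 fold change was −0.60 (SE 0.21, adjusted p 0.616 in edgeR's test), the lowest of the members. Without wild-type 1 it was −0.34. PSMA2 stood at 22.5 and 14.7 CPM in wild type and at 11.3, 14.1 and 13.95 CPM in the variant, with −0.50 (SE 0.24). PSMA4 stood at 503.5 and 328 CPM against 275, 329 and 329 CPM, so that wild-type 1 alone was high. PSMA7 went the other way, from 209.9 and 215 CPM to 314, 251 and 235 CPM, with a log2 fold change of 0.33 (SE 0.16), or 0.19 without variant 1. Wild-type 1 was above the other libraries in 6 of the 7 genes, against 50.6% of tested genes. The median was 0.52, or 0.15 in levels corrected for GC content and length.

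In the beta ring, which holds the proteases, 5 of 7 genes were below 0 (49.5% of tested genes), with a median of −0.14. PSMB6, the caspase-like protease, stood at 310.02 and 272 CPM in wild type and at 215, 214 and 230.1 CPM in the variant. All variant libraries were lower, and the log2 fold change was −0.41 (SE 0.14, adjusted p 0.616 in edgeR's test). PSMB5, the chymotrypsin-like protease, stood at 191 and 204 CPM against 249, 270.5 and 198 CPM, with 0.28 (SE 0.16). PSMB7, the trypsin-like protease, stood at 230.2 and 239.9 CPM against 196, 308 and 357 CPM, with 0.29 (SE 0.23). For both, the groups overlapped. Each of the 3 proteases thus had its own order of libraries.

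Their inducible counterparts, which replace them in the immunoproteasome, were near the floor of the table. PSMB9, the counterpart of PSMB6, had 15 and 24 counts in wild type and 15, 14 and 12 in the variant. PSMB10, the counterpart of PSMB7, had 20 and 41 counts in wild type and 25, 44 and 46 in the variant. With so few counts, differences of these sizes were not distinguishable at this depth, and the log2 fold changes of −0.52 (SE 0.40) and 0.32 (SE 0.42) had intervals that spanned 0.

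In the base, 5 of 6 ATPases were below 0 (49.5% of tested genes), with a median of −0.07. PSMC4 stood at 432 and 528 CPM in wild type and 457, 475 and 477 CPM in the variant, with −0.03 (SE 0.14). PSMC5 stood at 282 and 355 CPM against 264, 260.1 and 304 CPM, with −0.21 (SE 0.15), and the groups overlapped. PSMC1 had the highest value of the ATPases, 0.35 (SE 0.20), at 29.03 and 37.01 CPM against 43.8, 47.4 and 34.8 CPM. Its 3 pseudogene rows took between 25.7% and 32.4% of the combined counts, so it is uncertain. The scaffolds PSMD1 and PSMD2 and the ubiquitin receptor PSMD4 had −0.10, 0.11 and −0.01, each with overlapping groups.

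In the lid, 6 of 8 genes were below 0 (49.5% of tested genes), with a median of −0.22. PSMD13 itself had −0.28 (SE 0.31, 95% interval −0.99 to 0.43, adjusted p 0.839 in edgeR's test), with 125 ± 20.7 CPM in wild type (SD, n = 2) and 103 ± 41.99 CPM in the variant (SD, n = 3). Without variant 2 the log2 fold change was 0.00, and it was −0.59 without variant 3, −0.10 without wild-type 2 and −0.44 without wild-type 1. PSMD12 stood at 191 and 147 CPM in wild type and at 131, 126 and 145 CPM in the variant, with −0.34 (SE 0.16). PSMD6 stood at 159 and 154 CPM against 124, 131 and 136 CPM, with −0.26 (SE 0.14). In these 2 genes the groups did not overlap. PSMD14, the deubiquitinase, stood at 173 and 145 CPM against 117, 147 and 124 CPM, and its groups overlapped. PSMD3 and PSMD7 had 0.15 and 0.01, PSMD8 and PSMD11 −0.18 and −0.04.

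Among the assembly chaperones, PSMG1, which builds alpha rings with PSMG2, stood at 135 and 114 CPM in wild type and at 91.5, 98.05 and 82.6 CPM in the variant. The groups did not overlap, and its log2 fold change was −0.46 (SE 0.16, adjusted p 0.616 in edgeR's test). PSMG2 had 0.10 (SE 0.18), at 44.1 and 43.1 CPM against 51.8, 39.2 and 49.4 CPM. PSMG4 had 0.44 (SE 0.20), or 0.28 without wild-type 2, with all variant libraries above both wild-type libraries. PSMG3 had −0.11 (SE 0.18). The partners PSMG1 and PSMG2 thus differed in direction, though this difference was not tested.

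PSMD5, an assembly chaperone of the base, gave the widest range of any member, 1.69 log2 units. It had 180 counts in wild-type 1 and 598 in wild-type 2, with 479, 577 and 539 in variants 1 to 3. At 10.5 CPM, wild-type 1 was 0.338 times the level of the other libraries, which lay between 27.7 and 34.1 CPM. It was the only member at least 1 log2 unit below the others in wild-type 1, where 2.16% of tested genes were. Of the 235 values of members in libraries, taken as distance from the member median of that library, PSMD5 in wild-type 1 was the farthest and PSMD13 in variant 2 was next. The log2 fold change of PSMD5, 0.45 (SE 0.40), was −0.17 without wild-type 1 and 1.54 without wild-type 2. PSMB10 and PSMA1 followed PSMD5 and PSMD13 in range, at 1.08 and 1.03.

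The activators and the inhibitor had a median log2 fold change of 0.06. The 11S subunits PSME1 and PSME2 had log2 fold changes of 0.06 (SE 0.19) and 0.18 (SE 0.19), and PSME4 had −0.12 (SE 0.17). PSME3, the nuclear 11S activator, had −0.17 (SE 0.13), with 388 and 398 CPM in wild type and 363, 345 and 344 CPM in the variant. Its groups did not overlap, with the narrowest range over libraries of these 5 genes. PSMF1, which encodes PI31, had 0.07 (SE 0.19). PSMC3IP and PSME3IP1, matched by name, had 0.12 and −0.03, and without them the median of the members was −0.10.

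Variant 1 was the library in which most members were low. Of the 46 members other than PSMD13, 37 were below the other libraries there, against 50.4% of tested genes, and 33 of the 37 outside chromosomes 9 and 14 were. Variant 1 was the lowest of the 5 libraries for 19 of 47 members (40.4%), against 22.0% of tested genes. The summed level of the members was 8895 and 9168 CPM in wild type and 8005, 8902 and 8771 CPM in variant 1, variant 2 and variant 3. All 7 lid genes other than PSMD13 were below the other libraries in variant 1, with a median of −0.22. In levels corrected for GC content and length, 31 of 46 were below, against 48.8% of tested genes. This is a description of 1 library, and no batch is given in the labels.

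**Figure D4:**
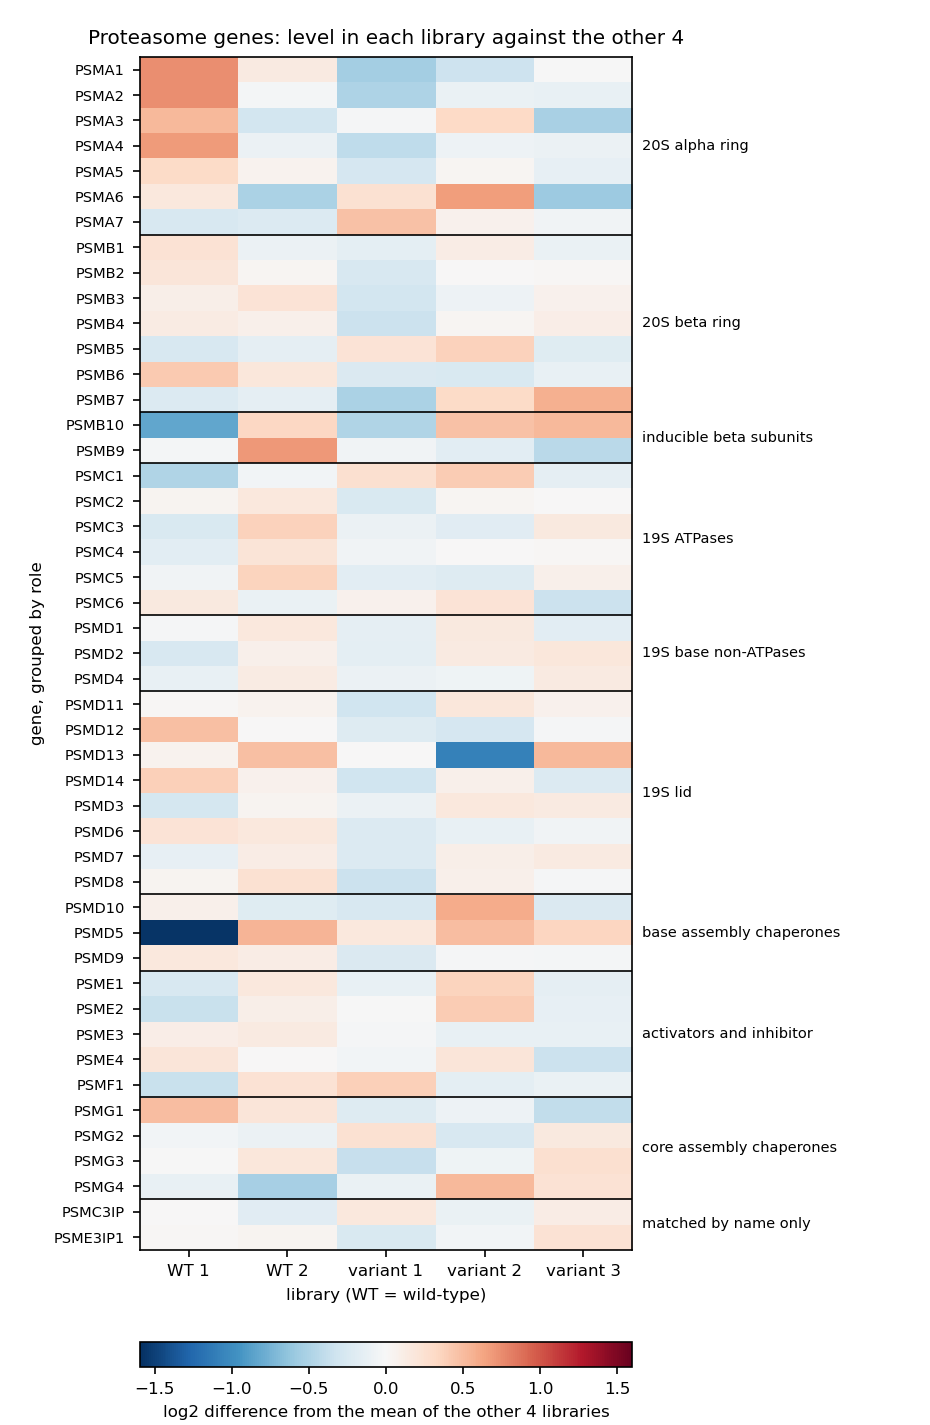
Log2 difference of each of the 47 proteasome genes from the mean of the other 4 libraries (blue lower, red higher), with genes grouped by role. PSMD5 in wild-type 1 (−1.56) and PSMD13 in variant 2 (−1.08) are the darkest cells, and the variant 1 column is mostly blue.

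Some members lay to the same side as the chromosome they lie on. Of the members, 7 lie on chromosome 14 (PSMA3, PSMA6, PSMB5, PSMC1, PSMC6, PSME1 and PSME2). All 7 were above the other libraries in variant 2 (49.6% of tested genes) and all 7 below them in variant 3 (50.4%). Their medians were 0.37 and −0.19. The medians of the 541 tested genes of chromosome 14 were 0.35 and −0.27 in the same libraries. In variant 1 the members of chromosome 14 had a median of 0.07, below the 0.34 of that chromosome. The 2 members on chromosome 9, PSMB7 and PSMD5, had a median log2 fold change of 0.37, and the 662 tested genes of that chromosome had 0.35. PSMA7 and PSMF1, on chromosome 20, were highest in variant 1, at 0.47 and 0.39, where the median of that chromosome was 0.46. PSMG2, on chromosome 18, had −0.26 in variant 2, where the chromosome median was −0.24.

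Across the 47 members, which share libraries and in part chromosomes, the Spearman correlation between a member's difference and its chromosome's median was 0.511 in wild-type 1 and 0.348 in wild-type 2. It was 0.467 in variant 1, 0.685 in variant 2 and 0.733 in variant 3. Across the same genes the correlation with GC content was −0.535 and 0.379 in the wild-type libraries 1 and 2, and 0.0750, −0.0866 and 0.405 in variants 1 to 3. What part chromosome or GC content had in the group differences was not tested. With the chromosome median removed from every gene, PSMD13 was −1.08 from the lid median in variant 2. The median of chromosome 11 was only −0.04 there, so its removal could change PSMD13's own value by little. It does not remove what PSMD13 shares with its nearest neighbours.

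**Figure D5:**
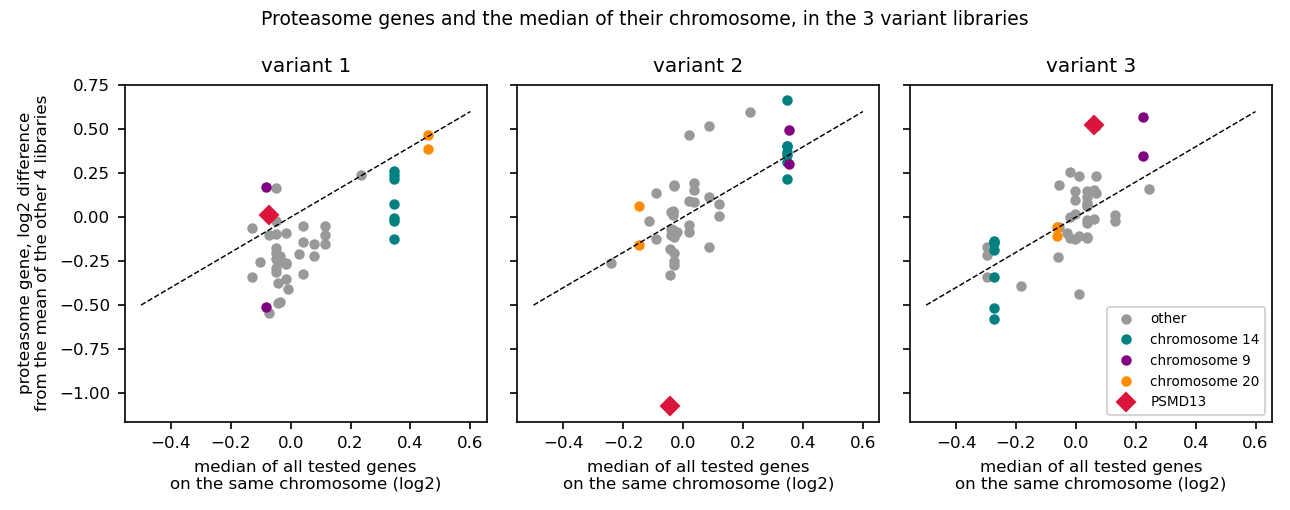
Log2 difference of each proteasome gene from the other 4 libraries (vertical axis) against the median difference of all tested genes on its chromosome (horizontal axis), in the 3 variant libraries; the dashed line marks equal values. The 7 members on chromosome 14 lie above 0 in variant 2 and below 0 in variant 3, as that chromosome does, while PSMD13 lies at −1.08 in variant 2 where the median of chromosome 11 is −0.04.

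Per length of transcript, levels differed more between members than between libraries. Levels were divided by the length of 1 reference transcript per gene and given as CPM per kilobase (mean ± SD, n = 5). The highest were the lid gene PSMD8 at 427 ± 48.6, PSME3 at 368 ± 25.0 and the beta subunit PSMB4 at 361 ± 37.1, which overlap in their spread. The lowest were PSMB9 at 1.17 ± 0.337, PSMB10 at 1.65 ± 0.543 and PSMD9, an assembly chaperone of the base, at 4.88 ± 0.418. Within the lid the order was PSMD8, PSMD3 (259 ± 26.2), PSMD6 (98.5 ± 10.5), PSMD11 (75.8 ± 7.45), PSMD14 (72.3 ± 11.3), PSMD7 (67.1 ± 6.01), PSMD13 (55.99 ± 16.9) and PSMD12 (33.6 ± 5.84). From PSMD11 to PSMD12, neighbours in this order overlapped in mean ± SD, and the spread of PSMD13 includes its low level in variant 2. This overlap does not compare genes within a library. In every library PSMD13 was above PSMD12 and below PSMD7. In variant 2 PSMD13 stood at 29.4 CPM per kilobase, next to PSMD12 at 28.6. The median range of a member over the 5 libraries was 0.49 log2 units, against 0.50 for the 8136 tested genes whose mean level was within the range of most members.

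Genes that work with the proteasome gave mixed values. Of 18 tested partners (shuttles, adaptors and deubiquitinases), 3 were higher and 2 lower with edgeR's unadjusted p under 0.05 (4.11% and 3.51% of tested genes), none at an adjusted p under 0.05, and the median log2 fold change was 0.02. The higher were the ubiquitin shuttle UBQLN1 (0.60, SE 0.16), ZFAND5 (0.60, SE 0.20) and the adaptor ECPAS (0.43, SE 0.18), and all 3 lie on chromosome 9. The lower were the deubiquitinase UCHL5 (−0.55, SE 0.20) and the maturation factor POMP (−0.52, SE 0.22). POMP stood at 141 and 86.1 CPM in wild type and 69.5, 78.9 and 89.2 CPM in the variant, so its groups overlapped.

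Of 13 genes of the NFE2L1 route, 1 was higher at the same unadjusted threshold (edgeR), MAFG, a small MAF partner (0.39, SE 0.16), and 0 were lower, against 4.11% and 3.51% of tested genes. The median was 0.17, and NFE2L1 had 0.19 (SE 0.15). MAFF and NFE2L3, the extremes of this list, had 0.98 (SE 0.57) and −0.23 (SE 0.18), with MAFF between 0.466 and 3.67 CPM. Among 6 ubiquitin supply genes UBB had 0.40 (SE 0.17) and RPS27A −0.57 (SE 0.19), both under the unadjusted threshold in edgeR's test (4.11% of tested genes higher, 3.51% lower). UBB stood at 232 and 279 CPM in wild type and at 332, 394 and 288 CPM in the variant, with groups apart.

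The COP9 signalosome and eIF3 share ancestry with the lid. All 10 COP9 genes had a log2 fold change below 0 (49.5% of tested genes), with a median of −0.18, and 2 of them, COPS2 (−0.54, SE 0.20) and COPS4 (−0.43, SE 0.16), were lower under the unadjusted threshold in edgeR's test (3.51% of tested genes). GPS1, the highest of them, had −0.04 (SE 0.13). Of 12 eIF3 genes 9 were below 0, against the same 49.5%, with a median of −0.04 and 1, EIF3E (−0.53, SE 0.18), at that threshold (3.51%). EIF3L was the highest, at 0.08 (SE 0.23). The lid median was −0.22, or −0.18 without PSMD13, against −0.18 for the COP9 signalosome and −0.24 for the alpha ring. A median of this size was thus not particular to the lid and the COP9 signalosome. None of these genes passed an adjusted p of 0.05. In variant 2, where PSMD13 was low, the median difference was −0.09 for COP9 genes and −0.05 for eIF3 genes, against 0.09 for the other lid genes.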

How the data were processed

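The values the authors deposited are gene-level read counts, unnormalized and whole, in 1 table. HISAT2, SAMtools, HTSeq and the build hg38 are named in the submitters' processing notes. The annotation, the strand setting and any gene filter are not given in the sources used here. Library names in the labels identified the columns, and 0 columns were left over. Symbols came from a gene name table (16627 of 16677 identifiers) and otherwise from GENCODE release 29, which also gave gene types, positions, and the length and GC content of 1 principal transcript per gene. Promoter windows (250 bases before to 50 after the start) came from RefSeq, for 41 of 47 members.

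Low genes were removed with filterByExpr, which left 16310. Counts were scaled by TMM and fitted with edgeR 4.0.16 in R 4.3.3 (robust quasi-likelihood F test, all 5 libraries, group as the only term). P-values were two-sided and adjusted by Benjamini-Hochberg over all tested genes. Standard errors were the size of the log2 fold change divided by the square root of the F statistic of this test. The 95% intervals came from these and the t distribution, so both restate the p-value. Log2 CPM used a prior count of 2. Alternatives were RLE scaling, no filter, at least 10 counts in every library, DESeq2 1.42.0, limma-voom (limma 3.58.1), the replicate number as a block, a spline correction for GC content and length (5 degrees of freedom), a prior count of 0.5, and leaving out each library. The tests were checked on simulated counts.

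Members, role lists and partner lists were chosen with earlier results of these data known. The rule for named genes took PSMD13, the lid, the beta proteases and their inducible counterparts, the members at the extremes of the group difference, of variant 2, of range and of level per length, and members at an unadjusted p under 0.05. From the other lists it took the extremes and the genes at that p.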

Additional observations from a re-analysis of the deposited data

How the results depend on the processing

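The number of members at an adjusted p under 0.05 was 0 under every alternative run, with DESeq2, limma-voom and the replicate block included. PSMD13's log2 fold change of −0.28 became 0.000226 without variant 2. The median of the other subunits in variant 2, 0.0317, turned negative without variant 1 (−0.0206), outside chromosomes 9 and 14 (−0.0219) and with chromosome medians removed (−0.00349). The fits that leave out 1 library gave −0.589 to 0.000226 for PSMD13, −0.120 to −0.0290 for the median of the members, −1.22 to −1.08 for PSMD13 against the lid in variant 2, and −0.0206 to 0.0755 for the median of the other subunits there. In the replicate block fit PSMD13 had −0.641 (adjusted p 0.543), the lowest of its 12 alternatives, and the median of the members was −0.0736. Nothing in the labels says that equal numbers pair libraries. Deviations of same-numbered libraries correlated at 0.120 for number 1 and at −0.113 for number 2, and those of other pairs at −0.221 to 0.221. With 2 wild-type libraries, the deviations of one mirror those of the other, so these correlations cannot decide whether libraries are paired. Of 60 values under the alternatives, 59 stayed within their spread or on their side of the threshold, those 3 changes of sign within the spread included. This rule was loose, so the count does not measure stability. The spread was 0.0951 for the median of the members (−0.0999) and 0.105 for that of the other subunits (0.0317). PSMD13's fold change counted as staying while its sign held and its adjusted p was not under 0.05. So −0.641 (replicate block) and −0.0996 (without wild-type 2) both counted. The removal of chromosomes 9 and 14, and of chromosome medians, was added after seeing the data, as were the counts of members under the GC correction and without single libraries. A fit without 1 wild-type library assumes that the remaining one varies like the variant libraries. Depth limits PSMB9 and PSMB10, with 12 to 46 counts per library.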
